A study of Mus musculus with 18 samples.

Results

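The genes described here are the Wnt ligands, the Frizzled (Fzd) receptors, the co-receptors Lrp5 and Lrp6, the TCF factors Tcf7, Tcf7l1, Tcf7l2 and Lef1, and the feedback gene Axin2. They were taken by symbol, as every Wnt and every numbered Fzd gene plus those 7, and came to 36 of the 35642 genes in the expression table: 19 Wnt genes, 10 Fzd genes, 2 Lrp genes, 4 TCF factor genes and Axin2. The study sequenced polyA RNA of the mouse lines 1151 and 2838, both from pancreatic tumours, to compare cells with and without Mcu, the pore-forming subunit of the mitochondrial calcium uniporter. Both lines came from KPCY mice, which carry, among other alleles, Trp53 R172H behind a stop cassette that Cre removes, Pdx1-Cre, which acts in the pancreatic lineage, and a Cre-activated Yfp reporter at R26. The 1151 cells labelled knockout (1151 KO) had lost floxed Mcu through Cre and carried an empty vector. The 1151 cells labelled re-expressing (1151 MCU) were the same Cre-deleted cells with MCU put back, and both 1151 groups were kept in puromycin. The 2838 cells were clones 42 and 17, labelled CRISPR knockout (KO42 and KO17), and clones 22 and 15, labelled wild type with an empty vector (WT22 and WT15). The labels name no vector for KO42 and KO17. Each of the 6 groups had 3 untreated libraries, all of 1151 in batch 1 and all of 2838 in batch 2, so levels were tested within a line only and those of both lines are given side by side.

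Wnt proteins are secreted ligands that carry a lipid, which the acyltransferase Porcn attaches before the carrier Wls takes them to the cell surface. A Wnt binds a Frizzled receptor together with Lrp5 or Lrp6, the complex that degrades beta-catenin is then held back, and beta-catenin enters the nucleus and binds TCF factors at target genes such as Axin2, whose product feeds back on the pathway. Frizzled receptors are in turn removed from the cell surface by the ubiquitin ligases Rnf43 and Znrf3, which R-spondins block through Lgr receptors. In human pancreatic cancer cell lines WNT7B has been described as an autocrine ligand, and FZD5 as the receptor on which lines with mutant RNF43 depend.

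Values are TPM, transcript levels scaled to the library and corrected for length, so levels of different genes can be set side by side, while the read depth of the libraries is unknown. Tests were run with limma on log2(TPM + 1) over every gene that 3 or more libraries of a fit held at 1 TPM or above. A gene is called where its Benjamini-Hochberg adjusted p is below 0.05. The added 1 shrinks the change of genes at a few TPM or less, so log2 changes of low and high genes are not comparable in size. The labels do not state whether the libraries within a group stem from different cultures, so the p-values measure the spread between these libraries, which may be technical. A library had 10760 to 11507 genes at 1 TPM or more. WT22 replicate 3 stood apart, with an upper quartile of 3.73 TPM against 6.36 to 7.85 TPM in the other 17 libraries. For the 36 genes described here, the counts and calls of 2838 that change without it are given both ways. The counts of other pathway genes were not recomputed without it. Mcu itself stood at 16.6, 15.1 and 13.3 TPM in 1151 KO and 14.4, 15.2 and 13.1 TPM in 1151 MCU, a log2 difference of 0.07 (adjusted p = 0.581). Among the 2838 clones it stood at 12.3, 10.5 and 11.48 TPM in KO42 and 120, 122 and 113 TPM in KO17, against 94.4, 96.3 and 59.3 TPM in WT22 and 68.4, 81.2 and 76.0 TPM in WT15. Mcu RNA therefore followed the label in KO42 but not in KO17 or line 1151, and every direction below is that of libraries as labelled. RNA level alone does not show whether the protein was made, so it checks the labels in part. The libraries held 4897 to 7444 TPM of 11 epithelial and duct markers, with Krt8 at 1537 TPM or more and Krt18 at 1610 TPM or more. Epcam, one of the 11, was at or below 1.67 TPM throughout. Cldn4 was at or below 0.879 TPM in 2838 and 0.166 to 7.54 TPM in 1151. Pdx1 was 1.03 to 2.80 TPM in 2838 and 21.2 to 43.8 TPM in 1151. Of 10 acinar and endocrine markers 7, among them Ptf1a, insulin and glucagon, were listed at 0 in all 18 libraries. Their sum was at most 0.770 TPM in 1151, while in 2838 it was 9.21 to 12.2 TPM in KO42 and 11.5 to 13.6 TPM in KO17, against 16.5 to 24.6 TPM in WT22 and 21.8 to 29.3 TPM in WT15, most of it Cela1. Fibroblast markers summed to between 0.203 and 1.40 TPM over 10 genes, with Col1a2 and Lum listed at 0. Among the 10 immune markers Adgre1, Cd3e and Ncr1 were among those listed at 0, and Ptprc, Csf1r, Lyz2 and Itgam were at or below 0.227 TPM throughout. The immune sum, most of it Cd14, was 32.0 to 35.0 TPM in 1151 KO against 64.9 to 72.7 TPM in 1151 MCU. In 2838 it was 169 to 176 TPM in KO42 and 158 to 169 TPM in KO17, against 187 to 198 TPM in WT22 and 119 to 165 TPM in WT15. The 6 endothelial markers summed to 8.48 to 9.08 TPM in 1151 KO and 5.65 to 6.53 TPM in 1151 MCU, with Emcn at 0 in every library. Within that list Kdr averaged 8.51 TPM in 1151 KO against 0.767 TPM in 1151 MCU, and Cdh5 0.00568 TPM against 4.92 TPM. The part of these markers in the results below was not tested, and in bulk RNA fewer cells with a transcript and less RNA per cell cannot be told apart.

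Promoter windows, from 250 bases before to 50 bases after the start site, were matched in RefSeq (GRCm38.p6, mm10) for 26 of the 36 genes, 34 windows in all. They were searched on both strands for the TCF motif, taken as CTTTG with A or T at each of the next 2 places, and for its core CTTTG alone. The motif was in 6 of the 34 windows (17.6%) against 16.9% of all 32544 mouse promoter windows, and the core was in 18 (52.9%) against 54.0%. CG dinucleotides had a median of 28 per window against 7 over all windows. A match is a description of the letters, not a site of binding. The windows of a ligand, a receptor and the feedback target whose RNA differed between the groups of 1151 are shown, with any core in capitals. Wnt7a lies at chr6:91411304-91411603 on the minus strand, with 42 CG dinucleotides. Fzd1 lies at chr5:4758167-4758466 on the minus strand, with 16 CG dinucleotides and 2 cores. Axin2 lies at chr11:108920099-108920398 on the plus strand, with 31 CG dinucleotides. All run 5′ to 3′ along the gene.
Wnt7a: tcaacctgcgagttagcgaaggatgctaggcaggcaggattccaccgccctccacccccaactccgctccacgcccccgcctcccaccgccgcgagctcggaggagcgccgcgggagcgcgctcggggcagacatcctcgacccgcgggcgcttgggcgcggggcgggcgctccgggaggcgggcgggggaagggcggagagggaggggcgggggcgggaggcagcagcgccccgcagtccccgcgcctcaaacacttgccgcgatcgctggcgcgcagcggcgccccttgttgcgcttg
Fzd1: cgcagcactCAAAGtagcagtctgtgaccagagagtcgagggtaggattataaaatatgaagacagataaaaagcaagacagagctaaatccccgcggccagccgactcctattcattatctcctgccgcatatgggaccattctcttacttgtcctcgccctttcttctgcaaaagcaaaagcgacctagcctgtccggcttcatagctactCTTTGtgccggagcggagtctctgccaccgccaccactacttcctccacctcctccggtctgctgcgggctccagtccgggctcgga
Axin2: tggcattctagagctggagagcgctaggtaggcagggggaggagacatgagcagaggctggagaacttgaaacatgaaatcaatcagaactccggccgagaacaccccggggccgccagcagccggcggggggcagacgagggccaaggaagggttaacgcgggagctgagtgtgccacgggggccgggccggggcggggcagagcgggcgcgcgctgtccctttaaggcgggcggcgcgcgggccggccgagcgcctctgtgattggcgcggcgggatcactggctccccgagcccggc
Fzd1 holds 1 core on each strand, and the windows of Wnt7a and Axin2 hold none. Neither the motif nor the core is in the window of Wnt4 (chr4:137277385-137277684, plus strand, 51 CG dinucleotides). The full motif was found in a window of Fzd7, Lef1, Tcf7l2, Wnt3, Wnt5b and Wnt11.

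Of the 36 genes, 16 passed the filter in at least 1 line: 14 in 1151 and 15 in 2838, with 13 in both. The remaining 20 genes passed in neither line: they were 14 Wnt genes, Fzd3, Fzd8, Fzd9, Fzd10, Lef1 and Tcf7l1. Their highest value in any library was under 1 TPM for 15 of them, and Wnt3a and Wnt9b were listed at 0 in all 18 libraries. The 5 that exceeded 1 TPM in some library were Fzd8 (1.73 TPM in WT15 replicate 2), Wnt11 (1.52 TPM in 1151 KO replicate 3), Wnt10a (1.42 TPM in WT15 replicate 1), Tcf7l1 (1.25 TPM in WT15 replicate 1) and Fzd3 (1.07 TPM in 1151 MCU replicate 2). Wnt1, Wnt2, Wnt2b, Wnt3, Wnt5b, Wnt6, Wnt8a, Wnt8b, Wnt9a and Wnt16 peaked between 0.0166 TPM (Wnt3) and 0.622 TPM (Wnt16). Fzd10 and Lef1 reached at most 0.0419 and 0.123 TPM, and Fzd9 0.894 TPM. Lef1 and Tcf7l1, a TCF factor known mainly as a repressor, were thus near 0 while Tcf7 and Tcf7l2 were present. A listed 0 can be a failed estimate: Axin1, the scaffold of the destruction complex, was at 0 in 12 of the 18 libraries and between 1.12 and 12.2 TPM in the others, with both kinds inside 4 of the 6 groups.

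In line 1151, KO cells held several times more Wnt7a and Wnt7b RNA and less Wnt4 RNA than MCU cells. Their Frizzled RNA was higher for Fzd2 and Fzd4 and lower for Fzd5 and Fzd1, and Axin2 and Tcf7 RNA was higher. This comparison asks what differs when MCU is absent or put back in the same Cre-deleted cells. Of the 14 genes tested, 12 were called, 9 higher and 3 lower in 1151 KO. All genes were called at a rate of 61.0% (34.0% higher, 27.0% lower). Libraries of both groups did not overlap for 13 of the 14, 9 higher and 4 lower, against 37.4% and 29.8% of all genes tested. Axin2 is counted in both the 12 and the 13. It passed the filter through the 3 libraries of 1151 KO alone, so its separation follows from the filter. The median log2 change of the 14 was 0.35 against 0.05 over all 11630 genes. The median also differed between chromosomes, between -0.28 on chromosome 8 and 0.52 on chromosome 19. For the 14 genes, values centred on each chromosome's median are therefore given where they change a call.

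Wnt7a and Wnt7b carried the difference in ligand RNA. Wnt7a (chromosome 6, 91363981 to 91411363, minus strand, mm10), a ligand known from limb and reproductive tract patterning, had 59.1, 61.1 and 69.1 TPM in 1151 KO against 11.03, 11.4 and 11.6 TPM in 1151 MCU. Its log2 change was 2.37 (SE 0.074, adjusted p = 1.26e-06), and 2.09 after centring on its chromosome. Wnt7b (chromosome 15, 85535437 to 85582473, minus strand), its close relative, had 75.5, 78.4 and 82.3 TPM in 1151 KO against 19.0, 20.2 and 19.7 TPM in 1151 MCU. That is a log2 change of 1.95 (SE 0.058, adjusted p = 1.05e-06), and every KO library stood more than 3-fold above every MCU library. Wnt4 (chromosome 4, 137277489 to 137299726, plus strand), which acts in kidney and female reproductive tract development, went the other way. It had 1.03, 0.557 and 0.751 TPM in 1151 KO against 5.38, 5.45 and 5.04 TPM in 1151 MCU, a log2 change of -1.83 (SE 0.12, adjusted p = 2.95e-05). No other ligand passed the filter in 1151. Wnt5a, a ligand of beta-catenin-independent signalling, had 0.239, 1.58 and 0.123 TPM in 1151 KO against 0.110, 0.0996 and 0.264 TPM in 1151 MCU, and the single high library set its mean. Wnt11, another such ligand, averaged 1.02 TPM in 1151 KO and 0.034 TPM in 1151 MCU, and Wnt2 averaged 0.227 TPM in 1151 KO and was listed at 0 in all 3 libraries of 1151 MCU.

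**Figure D1:**
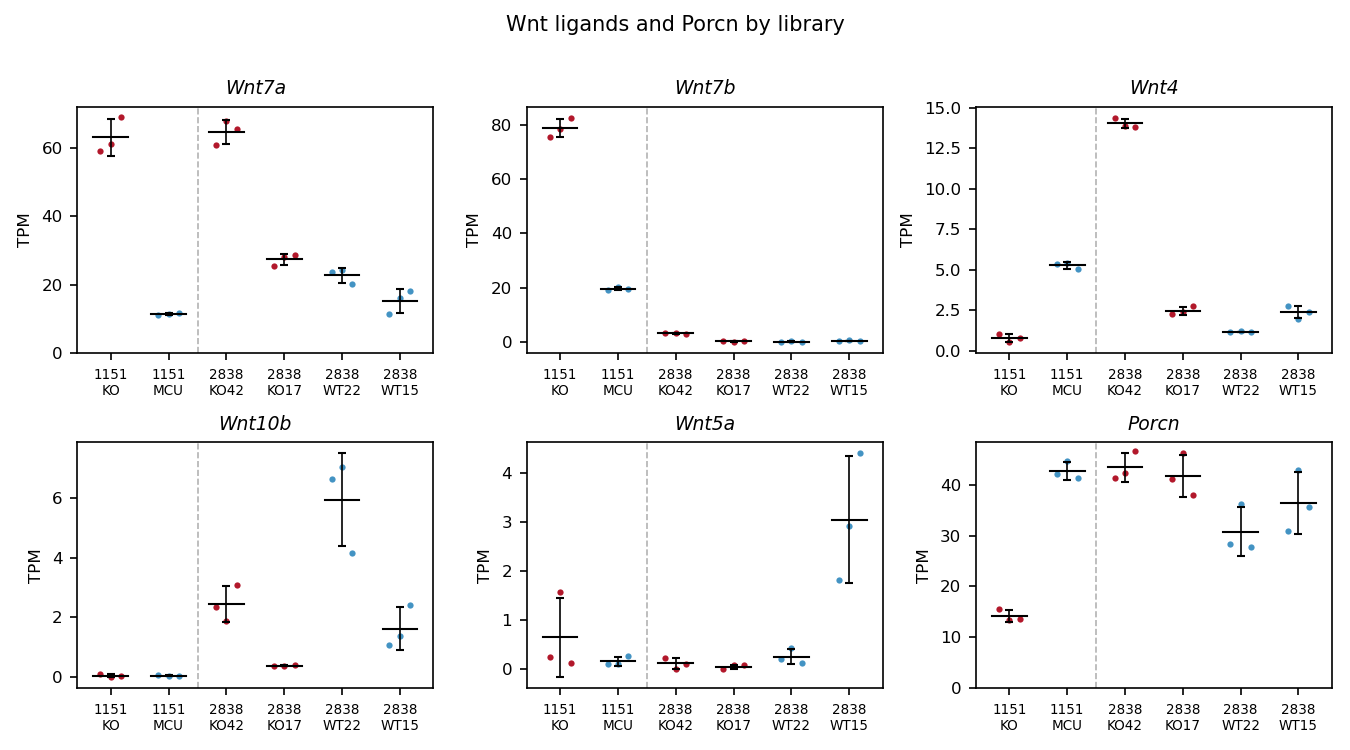
TPM of 5 Wnt ligands and of Porcn in each library (points), with the group mean (line) and SD (bar, n = 3); knockout-labelled groups are red, and the dashed line parts line 1151 from line 2838. Wnt7b is high in 1151, with means of 78.7 and 19.6 TPM, and at or below 3.58 TPM in every 2838 library, while Wnt4 peaks in KO42.

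Summed over the 19 Wnt genes, ligand RNA was 145 ± 8.61 TPM in 1151 KO against 37.4 ± 0.980 TPM in 1151 MCU (SD, n = 3 each). Wnt7a and Wnt7b together made up 97.6 ± 0.190% of it in 1151 KO and 82.9 ± 0.374% in 1151 MCU. The share of Wnt7b alone was 54.2 ± 0.912% in 1151 KO and 52.6 ± 0.273% in 1151 MCU. The share of Wnt7a was 43.4 ± 1.08% in 1151 KO against 30.3 ± 0.549% in 1151 MCU, and Wnt4 held 14.2 ± 0.692% in 1151 MCU. Porcn, without which Wnt proteins are not acylated, had 15.6, 13.4 and 13.6 TPM in 1151 KO against 42.0, 44.7 and 41.3 TPM in 1151 MCU (log2 change -1.52, SE 0.078, adjusted p = 8.85e-06). Wls, the carrier, averaged 76.8 ± 2.08 TPM in 1151 KO and 75.01 ± 5.05 TPM in 1151 MCU (adjusted p = 0.653).

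**Figure D2:**
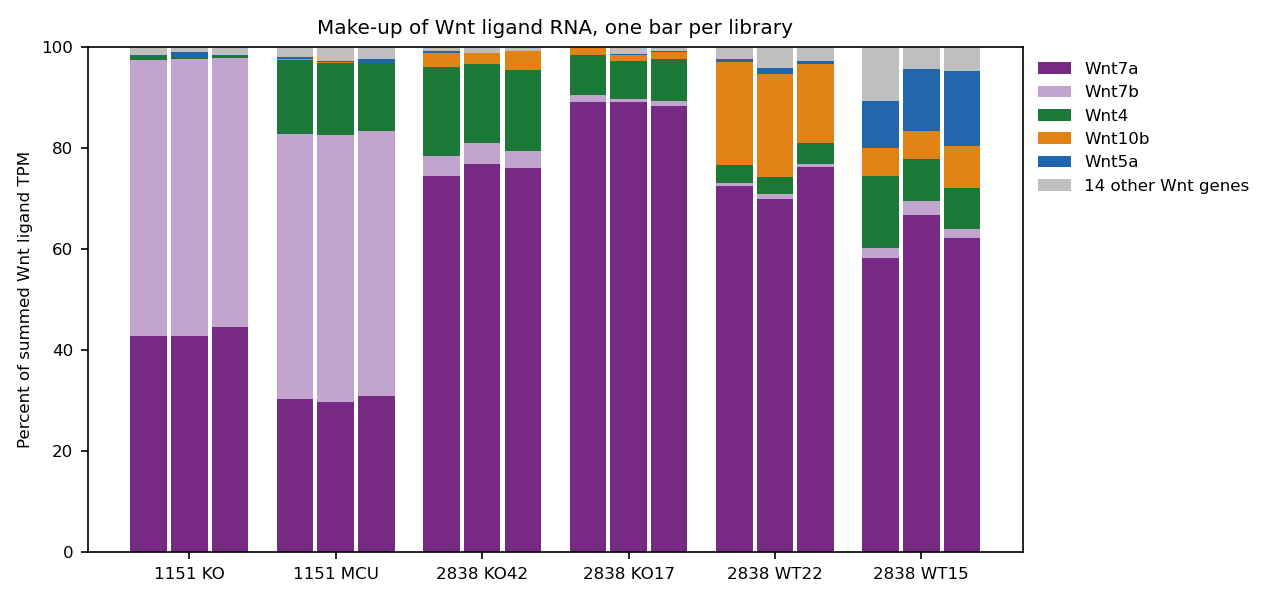
Share of each ligand in the summed TPM of the 19 Wnt genes, in percent, with 1 bar per library. Wnt7a and Wnt7b fill 97.6% of the bar on average in 1151 KO, and in 2838 the group mean of Wnt7a alone lies between 62.4% (WT15) and 88.8% (KO17).

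Among the receptors, 4 Fzd and Lrp genes were called higher in 1151 KO, 2 were called lower and 2 were not called. Fzd4, a receptor known from retinal vessels, had 6.08, 6.21 and 6.38 TPM in 1151 KO against 2.11, 1.82 and 2.25 TPM in 1151 MCU (log2 change 1.24, SE 0.094, adjusted p = 4.66e-05). Fzd2 had 7.15, 9.14 and 9.09 TPM in 1151 KO against 3.63, 3.93 and 3.82 TPM in 1151 MCU (log2 change 0.97, SE 0.11, adjusted p = 2.89e-04). The groups did not overlap for either gene. Fzd5, a main receptor of intestinal and pancreatic epithelium, had 18.1, 19.3 and 17.99 TPM in 1151 KO against 33.8, 33.7 and 32.0 TPM in 1151 MCU (log2 change -0.81, SE 0.060, adjusted p = 4.36e-05). Fzd1 had 4.94, 4.80 and 6.35 TPM in 1151 KO against 8.12, 8.51 and 7.57 TPM in 1151 MCU (log2 change -0.52, SE 0.11, adjusted p = 0.00654). Fzd5 was the most abundant Frizzled RNA in both 1151 groups, at 39.1 ± 1.79% of summed Fzd TPM in 1151 KO against 58.0 ± 1.16% in 1151 MCU. Fzd6 had 3.55, 2.64 and 3.88 TPM in 1151 KO and 4.26, 5.28 and 4.33 TPM in 1151 MCU (log2 change -0.37, SE 0.14, adjusted p = 0.0538). It was not called, but without 1151 KO replicate 3 it was (-0.46, adjusted p = 0.0361), as it was after centring on chromosome 15 (-0.82, adjusted p = 0.00228) and with median-of-ratios scaling (-0.43, adjusted p = 0.0338). Fzd7, the last of the Frizzled genes tested, overlapped between groups, at 4.49, 4.18 and 3.65 TPM in 1151 KO and 4.09, 4.53 and 4.09 TPM in 1151 MCU (adjusted p = 0.755).

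The co-receptor Lrp6 had 26.0, 23.4 and 22.3 TPM in 1151 KO against 18.3, 17.5 and 19.5 TPM in 1151 MCU (log2 change 0.36, SE 0.080, adjusted p = 0.00715). Lrp5, the most abundant RNA of the family in all 6 groups, had 90.3, 97.3 and 103 TPM in 1151 KO against 85.8, 81.7 and 76.7 TPM in 1151 MCU (log2 change 0.25, SE 0.070, adjusted p = 0.0189). The median of all genes was 0.27 on chromosome 6, which holds Lrp6, and 0.52 on chromosome 19, which holds Lrp5. Centred on it, Lrp6 was no longer called (0.07, adjusted p = 0.443) and Lrp5 turned to -0.27 and was called lower (adjusted p = 0.00935). The Lrp5 call was also lost with median-of-ratios scaling (0.17, adjusted p = 0.0724) and quantile normalization (0.18, adjusted p = 0.0554). It was lost without 1151 KO replicate 2 (0.24, adjusted p = 0.0575), without 1151 MCU replicate 2 (0.25, adjusted p = 0.0502) and without 1151 MCU replicate 3 (0.20, adjusted p = 0.071).

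**Figure D3:**
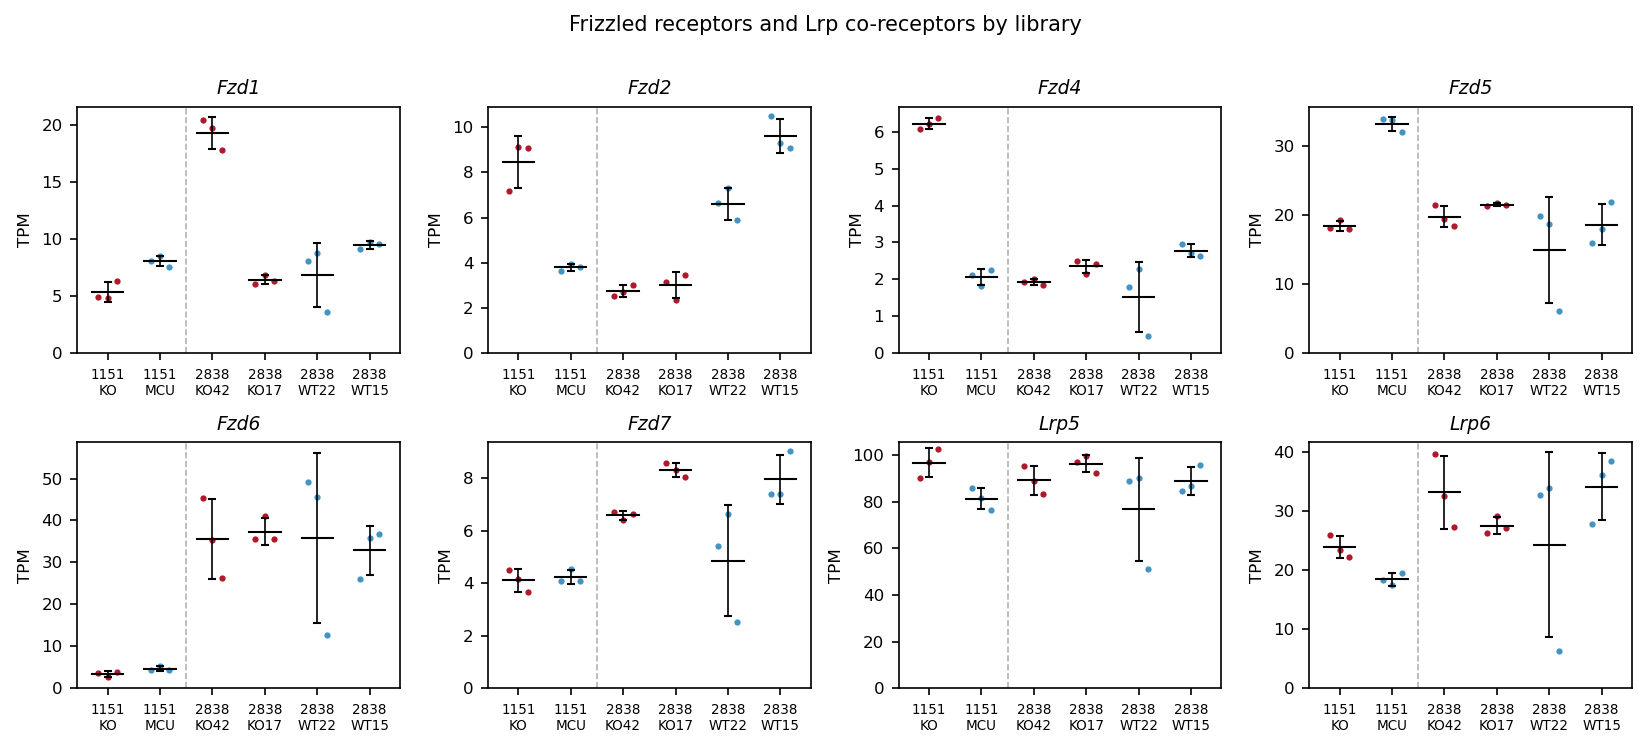
TPM of the 6 Frizzled and 2 Lrp genes tested, by library (points), with the group mean (line) and SD (bar, n = 3); knockout-labelled groups are red. Fzd4 and Fzd2 are higher and Fzd5 lower in 1151 KO than in 1151 MCU, Fzd1 peaks in KO42, and the low point of WT22 in most panels is replicate 3.

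Tcf7 and Tcf7l2, the beta-catenin partners present in these cells, and Axin2 were called higher in 1151 KO. Tcf7l2 had 19.3, 15.7 and 19.6 TPM in 1151 KO against 10.996, 9.98 and 12.6 TPM in 1151 MCU (log2 change 0.65, SE 0.12, adjusted p = 0.00249). It lies on chromosome 19 and was not called after centring (0.13, adjusted p = 0.381). Tcf7 had 11.96, 14.1 and 13.6 TPM in 1151 KO against 10.2, 10.6 and 9.82 TPM in 1151 MCU (log2 change 0.34, SE 0.083, adjusted p = 0.0101). Axin2 had 1.97, 1.89 and 2.07 TPM in 1151 KO against 0.533, 0.567 and 0.417 TPM in 1151 MCU (log2 change 0.98, SE 0.11, adjusted p = 2.38e-04). Its level is low and it passed the filter through the 3 libraries of 1151 KO alone, so that it could not be tested with any of them left out.

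**Figure D4:**
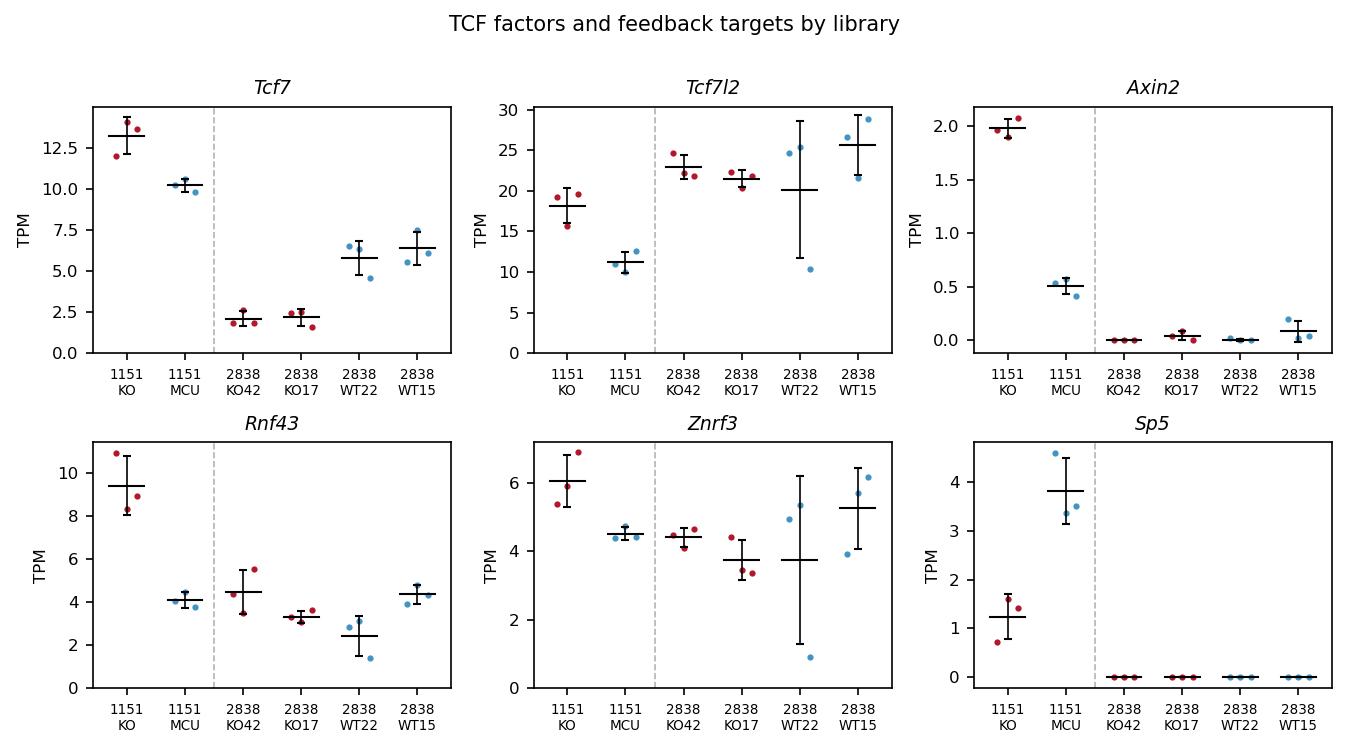
TPM of the 2 TCF factors tested, Axin2 and 3 further feedback targets, by library (points), with the group mean (line) and SD (bar, n = 3); knockout-labelled groups are red. Axin2 is between 1.89 and 2.07 TPM in 1151 KO and at or below 0.198 TPM in 2838, Sp5 is listed at 0 in all 12 libraries of 2838, and Tcf7 is low in KO42 and KO17.

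Other genes of the pathway, 87 in lists by role, were called in both directions in 1151: 20 higher and 15 lower of 50 tested, with a median log2 change of 0.01. Over all genes 34.0% were higher and 27.0% lower, so these shares lie near the background. Values centred on chromosome medians were not taken for these 87 genes. The part of chromosome-wide shifts in their calls was therefore not tested. Of the 4 tested genes of the R-spondin and Lgr module, Rnf43 (9.42 ± 1.37 TPM in 1151 KO against 4.11 ± 0.361 TPM in 1151 MCU) and Znrf3 (6.07 ± 0.758 against 4.52 ± 0.183 TPM) were higher. Lgr4 was lower, at 9.89 ± 0.196 TPM in 1151 KO against 16.0 ± 0.30 TPM in 1151 MCU. All 3 tested genes for other Wnt receptors were called. Ror1, a Wnt5a receptor, averaged 7.58 ± 0.430 TPM in 1151 KO against 1.17 ± 0.0639 TPM in 1151 MCU (log2 change 1.98), while Ptk7 (-0.64) and Ryk (-0.17) were lower. Secreted antagonists were almost absent: of 14 genes only Apcdd1, a membrane-bound antagonist, was tested, and it did not pass (adjusted p = 0.956). Among 15 genes of cytoplasmic signalling and the destruction complex, 5 were higher and 5 lower. The 4 called genes with the largest change were kinase, ubiquitin ligase or tankyrase genes that were higher in 1151 KO, namely Csnk1e (log2 change 1.006), Tnks2 (0.63), Btrc (0.60) and Gsk3b (0.57). Ctnnb1, beta-catenin itself, averaged 631 ± 29.0 TPM in 1151 KO against 904 ± 49.2 TPM in 1151 MCU (log2 change -0.52, adjusted p = 5.80e-04). Of 11 tested nuclear co-factors 3 were higher and 3 lower, and the Groucho co-repressors split: Tle4 was higher (26.7 ± 0.588 against 7.29 ± 0.848 TPM), and Tle2 (log2 change -1.17) and Tle3 (-0.96) were lower. Ctnnbip1, which blocks beta-catenin binding to TCF, was higher by 0.31. In the planar cell polarity list 3 genes were higher and 2 lower of 7, among them Prickle1 (0.74), Daam1 (0.64), Vangl1 (-0.66) and Prickle3 (-0.52).

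Of 21 listed beta-catenin and TCF target genes 12 were tested in 1151, and 10 were higher and 1 lower in KO cells, with a median log2 change of 0.71, beside 34.0% higher, 27.0% lower and a median of 0.05 over all genes. Axin2, which passed the filter through 1151 KO alone, Tcf7, Rnf43 and Znrf3 are among the 10, so this count repeats genes named above. Myc averaged 136 ± 16.3 TPM in 1151 KO against 52.8 ± 2.74 TPM in 1151 MCU (log2 change 1.34, adjusted p = 3.71e-05). Bmp4 had 102, 87.3 and 20.4 TPM in 1151 KO against 9.44, 8.25 and 19.4 TPM in 1151 MCU (log2 change 2.21, SE 0.62, adjusted p = 0.0179), so replicate 3 of each group lay near the other. Sp5, a direct target known from embryo and stem cell work, was the one that fell, with 0.713, 1.59 and 1.42 TPM in 1151 KO against 4.59, 3.36 and 3.499 TPM in 1151 MCU (log2 change -1.12, adjusted p = 0.0019). Many genes of this list also respond to other pathways.

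In line 2838 the KO clones shared lower Fzd2 and Tcf7 RNA, while Wnt4 and Wnt7b RNA was high in KO42 and Wnt5a RNA in WT15. Each of these groups is 1 clone, so what belongs to a clone and what belongs to its label cannot be told apart within a pair. The question was whether the knockout-labelled clones shared a change against the wild-type-labelled clones. With the clone as the unit of replication, limma called 0 of 15 members, against 0.0763% of all genes (9 of 11795). An unadjusted p under 0.05 was found for 4 members, Fzd2, Tcf7, Wnt7a and Wnt4, and for 662 of all 11795 genes. The median log2 change of the 15 was 0.19, against 0.07 over all genes. A second rule asked for an adjusted p below 0.05 and 1 sign in all 4 pairs of a KO clone and a WT clone. It called 2 of 15 members, Fzd2 and Tcf7, both lower, against 1.01% of all genes in either direction and 0.517% lower. Without WT22 replicate 3 the rule called 457 genes in place of 119, and the same 2 members. Every KO library stood below every WT library for these 2 genes (1.52% of all genes), and above every WT library for Wnt7a (3.53% of all genes). The other 12 overlapped.

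Fzd2 had 2.51, 2.72 and 3.01 TPM in KO42 and 3.16, 2.36 and 3.47 TPM in KO17, against 6.63, 7.29 and 5.87 TPM in WT22 and 10.5, 9.28 and 9.07 TPM in WT15. The log2 change of the clone means was -1.22 (SE 0.32, adjusted p = 0.452), and the largest adjusted p of the 4 pairs was 0.00695. Tcf7 had 1.81, 2.65 and 1.84 TPM in KO42 and 2.45, 2.50 and 1.56 TPM in KO17, against 6.49, 6.30 and 4.57 TPM in WT22 and 5.54, 7.49 and 6.11 TPM in WT15. Its clone-mean change was -1.18 (SE 0.31, adjusted p = 0.471), with a largest adjusted p of 0.00925 over the pairs. Without WT22 replicate 3 both genes kept their direction and call under the second rule, at -1.25 for Fzd2 (adjusted p = 0.00124) and -1.24 for Tcf7 (adjusted p = 0.00152). Between KO42 and KO17, whose Mcu RNA differed as given above, neither Fzd2 (-0.08, adjusted p = 0.799) nor Tcf7 (-0.03, adjusted p = 0.949) was called. The sum of the acinar and endocrine markers given above was likewise lower in every KO library than in every WT library of 2838, and its part in these results was not tested.

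**Figure D5:**
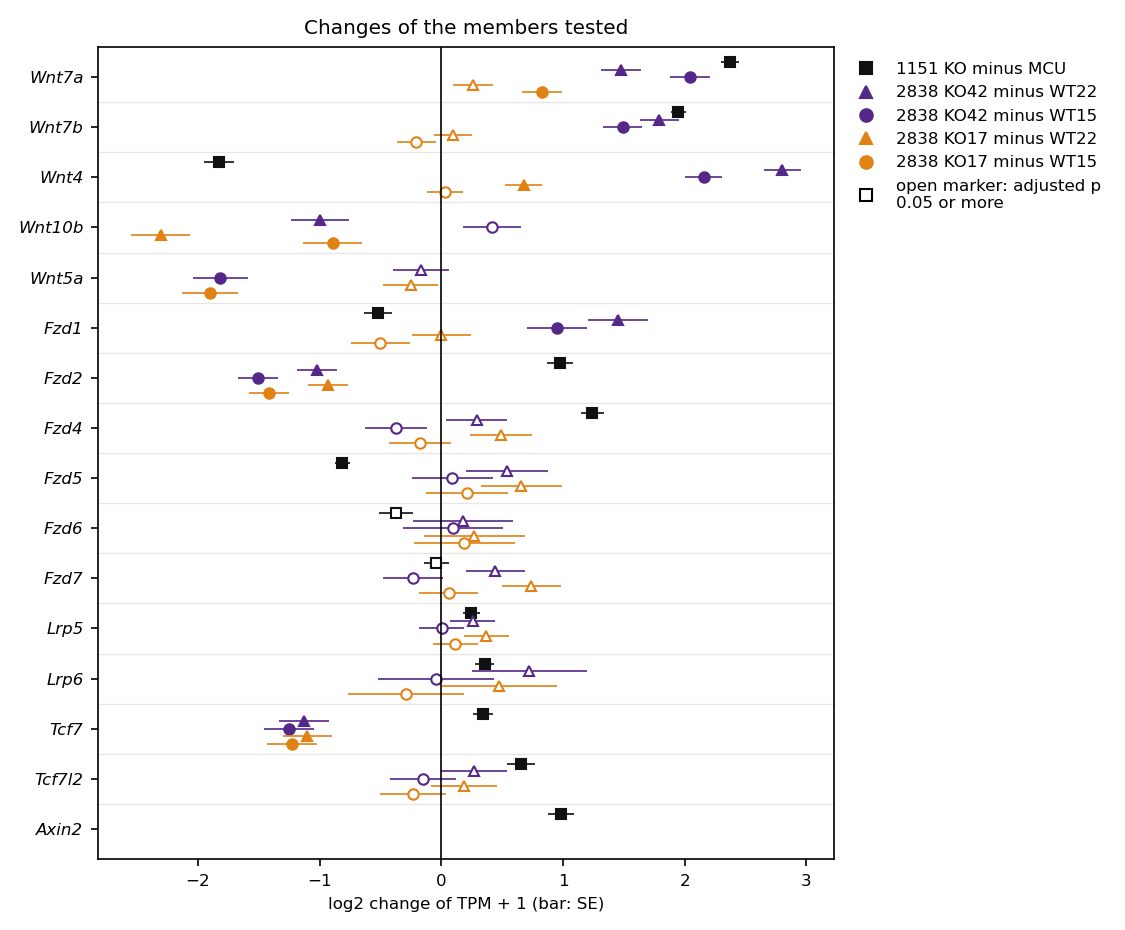
Log2 change of TPM + 1, with its SE (bar), for the 16 members tested in either line: 1151 KO minus MCU (squares) and the 4 pairs of a KO and a WT clone in 2838, with filled markers where the adjusted p was below 0.05. Fzd2 and Tcf7 lie left of 0 in all 4 pairs of 2838 and right of 0 in 1151, and the Wnt7a, Wnt7b, Wnt4 and Fzd1 values of KO42 lie right of those of KO17.

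The pairs share clones, so their values are set side by side. For KO42 against WT22, 7 members were called (4 higher, 3 lower; 10.3% of all genes), and for KO42 against WT15 also 7 (4 higher, 3 lower; 12.3%). KO17 against WT22 gave 4 (1 higher, 3 lower; 6.49%), and KO17 against WT15 gave 5 (1 higher, 4 lower; 10.7%). Without WT22 replicate 3 the counts were 7 for KO42 against WT22 (27.1% of all genes), 8 for KO42 against WT15 (35.2%), 6 for KO17 against WT22 (20.4%) and 6 for KO17 against WT15 (32.8%). They kept every call and added Fzd4 in KO42 against WT15, Fzd7 in KO17 against WT22 and Fzd1 in KO17 against both WT clones, where it was lower (-0.34 against WT22 and -0.50 against WT15). Wnt7b and Wnt5a entered these tests through 1 clone each, KO42 for Wnt7b and WT15 for Wnt5a, in which alone they reached 1 TPM, so their calls and their place in the counts follow from those clones. Wnt7a had 61.0, 67.9 and 65.5 TPM in KO42 and 25.4, 28.0 and 28.7 TPM in KO17, against 23.6, 24.3 and 20.2 TPM in WT22 and 11.3, 16.0 and 18.3 TPM in WT15. It was called in 3 of the 4 pairs, with log2 changes of 1.47 and 2.04 for KO42 and 0.83 for KO17 against WT15. Against WT22 the change in KO17 was 0.26 (adjusted p = 0.380). Wnt10b, known from mammary and bone development, had 2.37, 1.89 and 3.10 TPM in KO42 and 0.374, 0.355 and 0.412 TPM in KO17, against 6.63, 7.04 and 4.17 TPM in WT22 and 1.07, 1.37 and 2.43 TPM in WT15. It was lower in 3 pairs, with log2 changes of -0.998 (KO42 against WT22), -2.30 (KO17 against WT22) and -0.89 (KO17 against WT15), and the fourth, KO42 against WT15, was 0.42 (adjusted p = 0.329). Wnt5a had 0.232, 0 and 0.114 TPM in KO42 and 0, 0.0745 and 0.0756 TPM in KO17, against 0.215, 0.430 and 0.122 TPM in WT22 and 1.82, 2.92 and 4.40 TPM in WT15. WT15 alone was high, and Wnt5a was called lower against WT15 in both KO clones (log2 change -1.81 in KO42 and -1.90 in KO17) and against WT22 in neither.

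KO42 and KO17, which carry the same label, differed from each other in 5 of 15 members, all of them higher in KO42. Of all genes 17.2% were called between these clones, and 8.23% were higher in KO42. Without WT22 replicate 3, which enters only through the shared estimate of the spread, 4887 genes were called in place of 2031, and the same 5 members. Wnt4 had 14.4, 13.9 and 13.9 TPM in KO42 against 2.27, 2.36 and 2.73 TPM in KO17 (log2 change 2.13, SE 0.15, adjusted p = 8.91e-06). Wnt4 in WT22 and WT15 was within 1.14 to 2.78 TPM, so every KO42 library lay above all others of the line. Against the WT clones Wnt4 was called higher in KO42 (2.80 against WT22 and 2.16 against WT15) and in KO17 against WT22 (0.68), while KO17 against WT15 was 0.03. Wnt7b had 3.24, 3.58 and 2.94 TPM in KO42 against 0.426, 0.217 and 0.299 TPM in KO17 (log2 change 1.70, SE 0.16, adjusted p = 4.77e-05), and at most 0.652 TPM in WT22 and WT15. It was called higher in KO42 against WT22 (1.79) and WT15 (1.49), and not called for KO17. Because it passed the filter through the 3 KO42 libraries alone, it could not be tested with any of them left out, and 4 members were then called. Wnt7a (1.21, SE 0.16, adjusted p = 5.43e-04) and Wnt10b (1.31, SE 0.24, adjusted p = 0.0036) differed as well. The only receptor among the 5 was Fzd1, with 20.5, 19.8 and 17.8 TPM in KO42 against 6.07, 6.88 and 6.35 TPM in KO17 (log2 change 1.45, SE 0.24, adjusted p = 0.00216). In WT22 it had 8.12, 8.76 and 3.59 TPM, and in WT15 9.14, 9.77 and 9.60 TPM, and KO42 was called higher than both (1.45 and 0.95). Ligand RNA summed over the family was 85.5 ± 3.25 TPM in KO42 and 30.8 ± 2.04 TPM in KO17, against 31.3 ± 4.25 TPM in WT22 and 24.3 ± 4.96 TPM in WT15 (SD, n = 3 each). In WT22 without replicate 3 it was 32.6 and 34.8 TPM. In all 4 clones most of it was Wnt7a, at 75.8 ± 1.22% in KO42, 88.8 ± 0.395% in KO17, 72.9 ± 3.12% in WT22 and 62.4 ± 4.29% in WT15.

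Between the wild-type-labelled clones, 2 of 15 members were called, Wnt10b higher (log2 change 1.41, SE 0.24, adjusted p = 0.0122) and Wnt5a lower (-1.65, SE 0.23, adjusted p = 0.0050) in WT22 than in WT15. Of all genes 1.92% were called. Without WT22 replicate 3, 807 genes in place of 226 and 4 members were called, as Wnt4 (-0.64, adjusted p = 0.0242) and Wnt7a (0.65, adjusted p = 0.0338) joined them. Wnt5a passed the filter through the 3 WT15 libraries alone and was not tested with any of them left out. Wnt10b lost its call without WT15 replicate 1, WT15 replicate 2 or WT22 replicate 1. The count was therefore 0 without WT15 replicate 1 or WT15 replicate 2, and 1 without WT15 replicate 3 or WT22 replicate 1. The median change of all genes was -0.16 here, and -0.01 with median-of-ratios scaling, under which Wnt7a was called as well (0.73, adjusted p = 0.0369).

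With all libraries, the remaining receptors and Tcf7l2 were not called in any pair of 2838 clones. Fzd6, which opposes beta-catenin signalling in some cells and acts in planar polarity, was the leading Frizzled RNA, with 45.3, 35.3 and 26.2 TPM in KO42 and 35.5, 41.0 and 35.5 TPM in KO17, against 49.2, 45.6 and 12.6 TPM in WT22 and 26.1, 35.9 and 36.7 TPM in WT15. It held 40.7 ± 5.12% of summed Fzd TPM in KO42, 46.9 ± 2.21% in KO17, 47.9 ± 7.04% in WT22 and 39.5 ± 3.35% in WT15, beside 7.11 ± 1.34% in 1151 KO and 8.07 ± 0.765% in 1151 MCU. In WT22 without replicate 3 the share was 50.6 and 53.2%. Fzd5 had 21.4, 19.4 and 18.4 TPM in KO42 and 21.3, 21.7 and 21.5 TPM in KO17, against 19.8, 18.7 and 6.03 TPM in WT22 and 15.9, 17.998 and 21.8 TPM in WT15. Fzd7 had 6.72, 6.40 and 6.62 TPM in KO42 and 8.56, 8.29 and 8.06 TPM in KO17, against 5.403, 6.65 and 2.52 TPM in WT22 and 7.40, 7.40 and 9.04 TPM in WT15. Fzd7 in KO17 thus stood above WT22 in every library, with a log2 change of 0.74 (adjusted p = 0.104), and 0.41 (adjusted p = 0.0398) without WT22 replicate 3. Fzd4 had 1.93, 2.00 and 1.83 TPM in KO42 and 2.49, 2.16 and 2.42 TPM in KO17, against 1.80, 2.29 and 0.475 TPM in WT22 and 2.97, 2.72 and 2.65 TPM in WT15. Without WT22 replicate 3 it was called lower in KO42 than in WT15 (-0.37, adjusted p = 0.0447). Lrp5 had 95.4, 89.1 and 83.2 TPM in KO42 and 97.1, 99.5 and 92.5 TPM in KO17, against 89.2, 90.0 and 51.1 TPM in WT22 and 84.5, 86.9 and 95.8 TPM in WT15. Lrp6 had 39.6, 32.5 and 27.4 TPM in KO42 and 26.2, 29.1 and 27.2 TPM in KO17, against 32.8, 34.0 and 6.26 TPM in WT22 and 27.9, 36.1 and 38.6 TPM in WT15. For Lrp5 and Lrp6, as for the Frizzled genes of this paragraph, the lowest value in 2838 was that of WT22 replicate 3. Without that library the clone-mean changes of Fzd4 (-0.11), Fzd6 (-0.12), Lrp6 (-0.16) and Tcf7l2 (-0.18) changed sign and stayed uncalled. Tcf7l2 had 24.6, 22.3 and 21.9 TPM in KO42 and 22.3, 20.4 and 21.8 TPM in KO17, against 24.7, 25.4 and 10.4 TPM in WT22 and 26.6, 21.6 and 28.8 TPM in WT15. Axin2, the readout gene of the family, did not pass the filter in 2838. It was listed at 0 in all 3 libraries of KO42, in 1 of KO17 and in 2 of WT22, and its highest value there was 0.198 TPM in WT15 replicate 1.

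Outside the family none of 51 tested pathway genes was called by either rule for the KO-labelled clones. The counts of this paragraph rest on all libraries and were not recomputed without WT22 replicate 3. Between KO42 and KO17, 5 of the 51 were called, against 17.2% of all genes, so the share is no larger than the background. Tle4 (log2 change 0.90), Tle2 (1.05) and Sox9 (0.80), a factor of pancreatic duct cells, were higher in KO42, and Csnk1e (-0.66) and the polarity gene Vangl2 (-1.08) were lower. Sox9 was also the 1 pathway gene called between the wild-type-labelled clones, at 6.36 TPM in WT22 against 17.5 TPM in WT15 (log2 change -1.40, adjusted p = 0.0177). None of the 9 tested target genes was called higher by either rule, and the 1 called lower, by the second rule, was the member Tcf7.

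The effects in both lines were compared as the difference of 1151 KO minus MCU and the 2838 KO clones minus the WT clones, on the 6 group means. Limma called 0 of 16 members, against 1.10% of all genes. An unadjusted p under 0.05 was found for 1738 of all 12458 genes and for 4 members. These were Fzd2 (difference 2.19, adjusted p = 0.162), Tcf7 (1.52, adjusted p = 0.185), Axin2 (1.02, adjusted p = 0.143) and Fzd5 (-1.19, adjusted p = 0.335). Axin2 passed the filter here through the libraries of 1151 KO alone, so its difference and its place among the 4 follow from the filter. Wnt4 had a difference of -3.25 (SE 1.40, adjusted p = 0.426), being lower in 1151 KO and high in KO42 alone. Line and batch cannot be told apart in this comparison, since each batch holds 1 line.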

How the data were processed

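RNA-seq of 18 libraries of untreated mouse tumour cells, 3 in each of 6 groups, was used as the authors' deposited table of TPM per gene symbol. Per the submitters' processing notes, Salmon, DESeq2 and the mm10 build were used; versions and annotation are not given in the sources used here. TPM holds no read depth, so no counting error could be given. Values were taken as log2(TPM + 1) and fitted in limma (version 3.58.1, R 4.3.3) under a mean-variance trend and Benjamini-Hochberg adjustment over all genes that reached 1 TPM in at least 3 libraries of the fit. The procedure was tested on simulated data.

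Groups came from the sample titles. An allele of the mice and a marker gene are not reported here. Line 1151 was fitted on its 6 libraries. Line 2838 was fitted on 4 clone means, and on its 12 libraries with a call required in all 4 pairs of a KO and a WT clone; a gene's adjusted p is then the largest of the 4. The lines were compared on 6 group means. A call needed an adjusted p below 0.05. Every member was accounted for. Values in every library were given for members with a group mean of 5 TPM or a call, and up to 4 called genes with the largest change were named from each pathway list. Ctnnb1, Wls, Apcdd1 and Axin1 were named outside that rule, after their values were seen, and so were the library values of Wnt5a, Wnt10b and some low members. Members and lists were chosen with earlier results of these data known.

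Results for the members and counts of all genes called were recomputed under other settings, while the pathway lists were not. The settings were a pseudocount of 0.1, no filter or a filter on a mean of 5 TPM, and quantile normalization or scaling by the median of ratios. Others were a fit without the trend and a required log2 change of at least 1. Further alternatives were replicate number as a block, libraries in place of clones as the unit, leaving out each library or clone and, added after seeing the data, centring on chromosome medians and the clone pairs without WT22 replicate 3. Gene positions follow the GENCODE M21 annotation of mm10, and promoter sequences RefSeq (GRCm38.p6).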

Additional observations from a re-analysis of the deposited data

Results flagged for a closer look

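Fzd2 and Tcf7 separated in opposite directions in the 2 lines. Every 1151 KO library lay above every 1151 MCU library for both genes, and every KO library of 2838 lay below every WT library. Of all genes tested, 37.4% separated higher in 1151 and 1.52% lower in 2838. The share that did both was not counted. Both genes were picked for this separation, so the p-values below are not a separate test of it. The change in 1151 minus the change in 2838 was 2.19 (log2) for Fzd2, from 0.97 in 1151 and -1.22 in 2838. For Tcf7 the difference was 1.52, from 0.34 in 1151 and -1.18 in 2838. With the 6 group means as the unit, limma gave adjusted p = 0.162 for Fzd2 and 0.185 for Tcf7, so neither difference was called. With 18 libraries as the unit, which treats libraries of 1 clone as independent, the adjusted p was 6.26e-08 for Fzd2 and 2.87e-05 for Tcf7. Line, batch and the way Mcu was lost or restored cannot be told apart here.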

How the results depend on the processing

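In 1151 the calls of Wnt7a, Wnt7b, Wnt4, Fzd4, Fzd2, Fzd5, Fzd1, Tcf7 and Axin2 held after centring on chromosome medians, where Lrp5 turned to -0.27 and the uncalled Fzd7 to 0.0061; with a library left out Fzd7 was between -0.094 and 0.027. A minimum log2 change of 1 left 1571 genes and 4 members. No filter, under which members near 0 TPM were tested too, gave 20 members. With a library left out 10 to 12 members were called.

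For the clone means in 2838, the 9 genes called became 0 with no filter, 3 with median-of-ratios scaling, 4 with quantile normalization, 4 with no trend and 3 after centring. They became 431 with 12 libraries as the unit and 289 with the replicate block added (members 3 and 2). Leaving out clone KO17, KO42, WT15 or WT22 gave 398, 267, 0 and 0 (members 4 and 1 without KO17 and KO42). With a library left out it was 0 to 24. Under the rule on all 4 pairs, the 119 genes became 193 with median-of-ratios scaling, 215 with quantile normalization and 44 with a minimum log2 change of 1. They were 65 without KO17 replicate 1 and 457 without WT22 replicate 3. Without a clone only 2 pairs remain, so the rule is easier to meet. The counts were then 436, 244, 191 and 1303 without KO17, KO42, WT15 and WT22. The 2 members became 1 with a mean of at least 5 TPM or a minimum log2 change of 1. Over the 2 remaining pairs they became 5 without clone KO17, and 4 without clone WT15 or WT22. Both 2838 rules share the same mean change, and small uncalled ones turned: Fzd1 without KO42 (-0.25), Fzd4 centred (-0.040), without KO17 (-0.041) and without WT22 (-0.27), Fzd7 (-0.087) and Lrp6 (-0.17) without WT22. Tcf7l2 was -0.060 with median-of-ratios scaling, -0.089 with quantile normalization, -0.13 centred, -0.024 without KO42 and -0.19 without WT22. With a library left out Fzd4 lay between -0.11 and 0.18, Fzd6 between -0.12 and 0.35, Lrp6 between -0.16 and 0.41, and Tcf7l2 between -0.18 and 0.12.

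Between KO42 and KO17 the 2031 genes became 687 with a minimum log2 change of 1, 1161 without KO17 replicate 2 and 4887 without WT22 replicate 3, and members became 3 with a mean of at least 5 TPM. Fzd6 (0.11) and Wnt5a (-0.068) turned after centring. With a library left out Fzd6 lay between -0.28 and 0.10, Fzd2 between -0.20 and 0.00064, and Tcf7 between -0.18 and 0.048. Between WT22 and WT15 the 226 genes became 145 with a pseudocount of 0.1, 88 with a mean of at least 5 TPM, 126 with a minimum log2 change of 1, 145 with the replicate block, 85 without WT15 replicate 3 and 807 without WT22 replicate 3. Members became 0 with a mean of at least 5 TPM, and 0 to 4 with a library left out. Fzd6 was 0.072 with median-of-ratios scaling, 0.10 with quantile normalization and 0.043 centred, and Tcf7 was 0.016 and 0.19 with these 2 scalings. With a library left out Fzd6 lay between -0.41 and 0.53, Tcf7 between -0.21 and 0.011, Fzd5 between -0.72 and 0.061, and Lrp5 between -0.39 and 0.010.

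Between the lines the 137 genes became 1220 with no filter, 211 with quantile normalization, 0 with no trend, 4190 with 18 libraries as the unit, 273 centred, 4 without 1151 KO replicate 1 and 158 without WT22 replicate 3. Members were 3 with no filter and 11 with 18 libraries as the unit. Lrp5 was -0.30 centred and between -0.0084 and 0.19 with a library left out, and Lrp6 between -0.053 and 0.51. Genes higher and lower split 68 and 158 between WT22 and WT15, but 136 and 166 with quantile normalization. They split 58 and 61 over the 4 pairs but 63 and 107 centred, 82 and 55 between the lines but 130 and 143 centred, and 3 and 6 for the clone means but 2 and 2 with quantile normalization. Of 1973 recomputed values of single members, 1852 kept their direction and side of the threshold, 20 lost the call, 40 gained one and 61 changed sign. The cause of these shifts was not tested.

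The labels do not state whether replicate numbers pair the libraries. Deviations of libraries with the same number correlated between -0.146 and -0.0287 in 1151 (3 pairs) and between -0.153 and 0.196 in 2838 (18 pairs, 4 over 0.1). For different numbers the range was -0.128 to 0.188 in 1151 (6 pairs) and -0.195 to 0.147 in 2838 (36 pairs, 4 over 0.1). With 3 libraries per group these values cannot exclude pairing. With the block in 1151 the Lrp5 call was lost (adjusted p = 0.0578).

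Depth is unknown, so calls on members near 1 TPM, such as Axin2 in 1151 and Wnt7b in 2838, have no counting error behind them.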
